A study of Mus musculus with 2 samples.

Results

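The epidermal growth factor (EGF) receptor family and its ligands were examined as 9 mouse genes: the receptors Egfr, Erbb2, Erbb3 and Erbb4, the ligands Areg, Ereg, Hbegf and Btc, and the receptor inhibitor Errfi1. The genes were taken by name, and a peak was given to a gene when its summit, the position of highest signal, lay within the span of that gene in RefSeq GRCm38, introns included. They were 9 of 21900 protein-coding genes in the gene table, and 18 of the 21192 peaks of the list lay in them. The study measured N4-acetylcytidine (ac4C), an acetyl mark on cytidine in RNA, by acRIP-seq, in which RNA fragments bound by an antibody to ac4C are sequenced. The material was polyA RNA of whole uterus, taken from wild-type mice at gestational day 4, as 1 ac4C immunoprecipitation library and 1 input control library of RNA that was not pulled down. Strain, age and the number of animals behind each library are not given in the sources used here. The 2 libraries were compared through the 1 peak list that the authors deposited. Neither group had a replicate, so every value below has counting error only and no replicate check, and no tests between genes were made.

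EGF family ligands are made as membrane-bound precursors that are cut free by proteases, and they bind receptor tyrosine kinases that pair and phosphorylate each other. Egfr binds Areg directly, Hbegf, Ereg and Btc bind both Egfr and Erbb4, Erbb2 has no known ligand and acts as a partner, and Erbb3 has little kinase activity of its own. In the mouse uterus the ligands are known for their expression around the time of implantation, Hbegf in the luminal epithelium next to the blastocyst and Areg as a progesterone-responsive gene of the epithelium. Errfi1, also called Mig-6, binds the kinase domain of Egfr and restrains it, and is known as a progesterone-responsive gene of the uterus.

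Peaks were found in receptors and in the inhibitor, and in none of the ligands. Of the 9 genes, 4 held a peak (44.4%), and of all protein-coding genes 30.7% did. Erbb2 held 9 peaks, Egfr 5, Erbb3 3 and Errfi1 1. Erbb4, Areg, Ereg, Hbegf and Btc held 0. The receptors thus had 17 peaks in 3 of 4 genes, and the ligands had 0 peaks in 0 of 4 genes. With so few genes, and members chosen with earlier results of these data known, these counts describe the 9 genes and carry no test.

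A peak that covered the transcript start was found in 1 of the 6 members whose start could be placed. The first 30 bases of each of these RefSeq transcripts (GRCm38.p6) are shown because that peak, in Erbb2, is the only member peak that reaches a stretch for which sequence was at hand. Capitals mark cytidine, the base that can carry the acetyl group, and all sequences run 5′ to 3′ on the strand of the gene.
Erbb2: CgaggaagtgCggCgtgaagttgtggagCt
Egfr: CtCCCCCagtCCCgaCCCgagCtaaCtaga
Erbb4: aCtCCgggaaCtagCtgtaCgttgtgCtCg
Areg: gatCCCgCttCCttCgCtCCCttCtgaCCC
Btc: aCCagCaCCaagtggtgtgCCtCtCCgggg
Errfi1: gCagtgCaggaagggCtCtgtgtgCggaCC

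These stretches lie on chromosome 11 from 98412484 to 98412513 for Erbb2 and from 16752203 to 16752232 for Egfr, both on the plus strand. They lie on chromosome 1 from 69108030 to 69108059 for Erbb4 and on chromosome 5 from 91402965 to 91402994 for Btc, both on the minus strand, and on the plus strand of chromosome 5 from 91139599 to 91139628 for Areg and of chromosome 4 from 150853796 to 150853825 for Errfi1. Errfi1 has another start in the table at 150855070, also with no peak over it. Erbb3, Ereg and Hbegf had no entry in the table of starts.

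The start of Erbb2, with a peak, was the poorest in cytidine of these genes, and that of Areg, with none, was the richest. Over the first 50 bases, cytidine made up 20% in Erbb2 and 50% in Areg, with Egfr at 46%, Erbb4 at 32%, Btc at 28% and both starts of Errfi1 at 24%. Over 21263 such starts of protein-coding genes the median was 28% (interquartile range 22 to 34%), and 15.9% of them lay below Erbb2 and 97.7% below Areg. A peak covered part of the first 50 bases at 601 starts (2.83%), and there the median was 30%. The repeat CNNCNNCNNCNN, a form of the CXX pattern known from ac4C studies, was searched on the strand of the gene over these 50 bases, with overlapping matches counted. It had 0 matches in Erbb2, Btc and both starts of Errfi1, 1 in Egfr, 1 in Erbb4 and 2 in Areg, and at least 1 match at 24.7% of all starts and at 35.3% of starts with a peak. Guanine and cytidine together made up a median of 68% of these bases at starts with a peak and 60% over all starts. Whether this bears on the share with a match was not tested. A match is a description of letters in this window and does not mark a modified base. The summit of the Erbb2 peak lay 81 bp into the transcript, beyond these 50 bases, and most of its width of 236 bp was not counted. The cytidine content under that summit is therefore not known here.

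Erbb2 (NCBI gene 13866; chromosome 11, 98412484 to 98437716, plus strand) had the most peaks of the family and the highest fold enrichment. At least 9 peaks were held by 1.81% of protein-coding genes. Erbb2 spans only 25.2 kb, so its peaks came at 3.57 per 10 kb and covered 3952 bp, or 15.7% of the span. Fold enrichment here is the ratio of signal to background at a summit as the authors' peak caller gave it. The 95% interval after each value is the exact Poisson interval of the number of fragments at the summit, recovered from the deposited values. It takes the background as known, so any error of the background is not included. Whether fragments copied by PCR were removed is not given in the sources used here. Any that were left count like separate molecules.

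The peaks of Erbb2 fell in 3 places along the gene. At the 5′ end, the peak over the transcript start (98412464 to 98412699) had its summit 81 bp into the transcript and a fold enrichment of 9.11 (4.93 to 15.7). It rested on 11 fragments over a background of 0.317. That is the lowest background of the list, and many peaks share it, so it is not particular to this site. The next peak (98412829 to 98413165), with its summit 425 bp into the gene, stood at 4.50 (1.97 to 9.51) on 5 fragments. Both values therefore rest on few fragments, and their intervals overlap.

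The main group of Erbb2 peaks lay between 7.61 and 12.3 kb from the start, as 5 peaks within 5208 bp. The highest of them, and of the family, was the peak from 98422347 to 98423133, at 12.0-fold (7.54 to 18.2), on 20 fragments over a background of 0.753. The peak before it (98421895 to 98422174) stood at 10.6 (6.45 to 16.7), only 172 bp away. The peak after it (98424622 to 98425148) stood at 8.49 (4.99 to 13.7). The peaks that open the group, from 98419941 to 98420142 and from 98420724 to 98420988, stood lower, at 6.40 (3.46 to 11) and 6.05 (3.42 to 10). All 5 intervals overlap each other, so the order within the group is not resolved at this depth.

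The 3′ part of Erbb2 held the weakest peaks. The peak from 98432847 to 98433147 stood at 4.08 (2.09 to 7.37) on 9 fragments. The last peak, from 98435795 to 98436811, was the widest of the family at 1017 bp and stood at 4.25 (2.68 to 6.46), with its summit 1.02 kb before the end of the gene. It had 20 fragments, as many as the highest peak, over a background of 3.94, the highest background within Erbb2. Its interval lies below that of the highest peak. The end of Erbb2 shares 9 bp with the span of its neighbour Mien1, and no summit lay there. Beyond it, 3 further peaks, of up to 8.04-fold, lay within both Mien1 and Grb7, an adaptor gene that lies in the table within the span of Mien1.

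**Figure D1:**
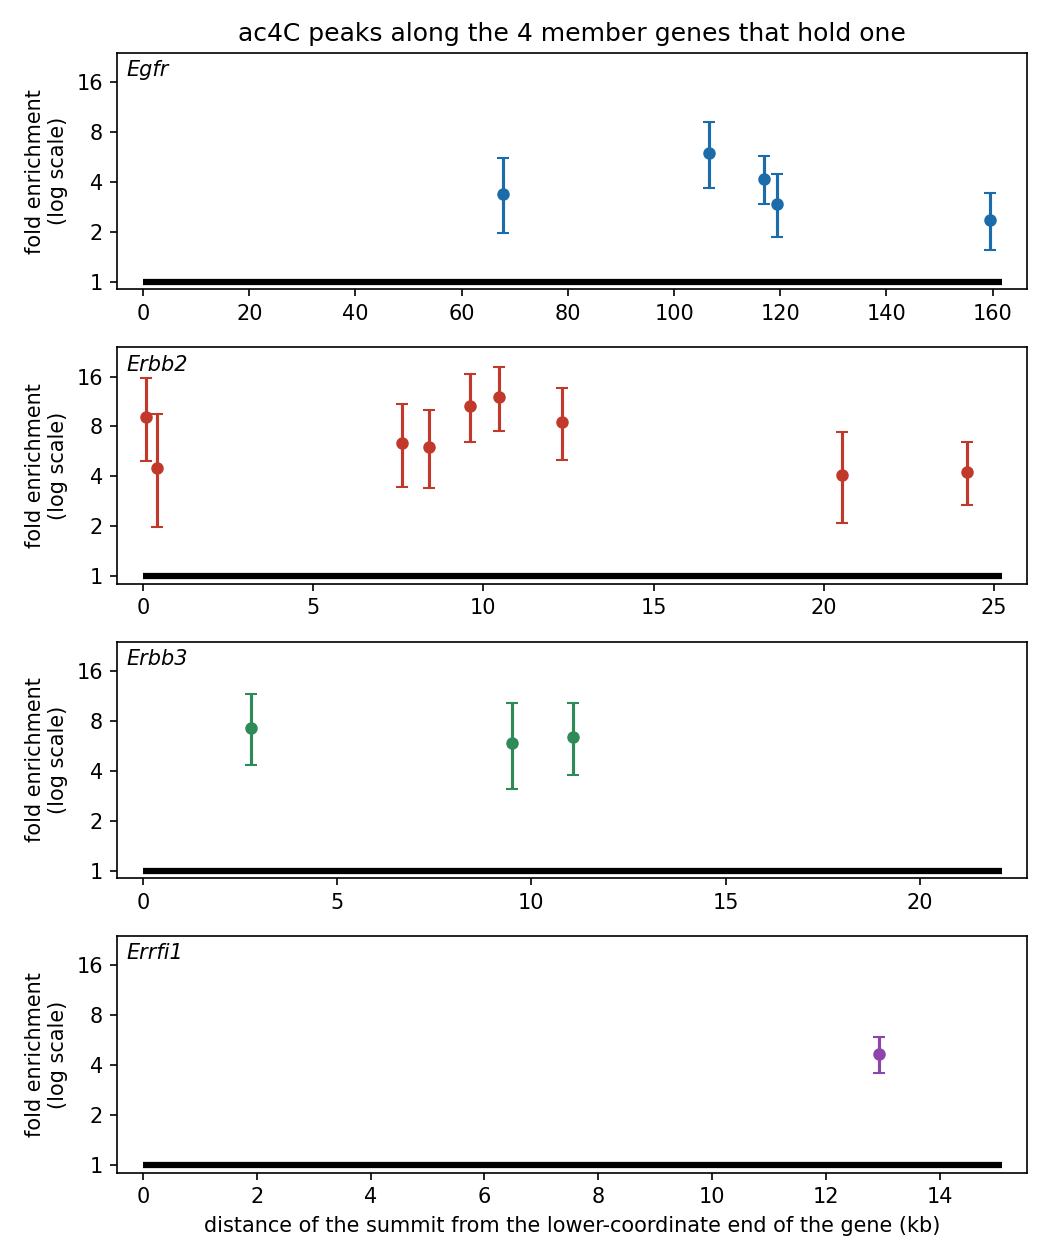
Each point is the summit of 1 peak, with its distance from the lower-coordinate end of the gene in kb on the horizontal axis and its fold enrichment on a log scale on the vertical axis, for Egfr, Erbb2, Erbb3 and Errfi1. Error bars are 95% Poisson intervals of the fragment number and the black bar is the gene span. All 9 peaks of Erbb2 stand at 4.08 to 12.0, and the 5 of its main group at 6.05 to 12.0. The 5 peaks of Egfr stand at 2.35 to 5.96.

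Egfr (NCBI gene 13649; chromosome 11, 16752203 to 16913907, plus strand), the receptor shared by all 4 ligands studied, held 5 peaks of lower enrichment. They were spread over a span of 162 kb, at 0.309 per 10 kb, and covered 0.742% of it. At least 5 peaks were held by 5.74% of protein-coding genes, and 49.8% of genes with spans from 100 to 200 kb held at least 1. No summit of Egfr lay within the first 67.8 kb of the gene.

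In order along Egfr, the first peak (16819923 to 16820176) stood at 3.40-fold (1.96 to 5.55) on 14 fragments. Its summit also lies within Egfros, a long non-coding RNA gene of 21103 bp placed inside Egfr, and since the list gives no strand the source of this peak cannot be told apart. The second (16858734 to 16858933) was the highest of the gene, at 5.96 (3.66 to 9.24) on 18 fragments over a background of 2.19. The third (16869066 to 16869286) stood at 4.17 (2.95 to 5.73) and had the most fragments of the gene, 36, over a background of 7.88. It was the only Egfr peak whose −log10 q reached 10. The fourth (16871479 to 16871700) stood at 2.95 (1.85 to 4.47), and the last (16911561 to 16911863), with its summit 2.22 kb before the gene end, at 2.35 (1.55 to 3.42). The last value was lower than 99.1% of the list, and its background of 10.1 fragments was the highest within Egfr. Its interval lies below that of the highest Egfr peak.

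Erbb3 (NCBI gene 13867; chromosome 10, 128567523 to 128589635), the receptor with little kinase activity of its own, held 3 peaks that were close to each other in enrichment. The peak from 128570114 to 128570403 stood at 7.29-fold (4.35 to 11.6) on 16 fragments. The peak from 128576975 to 128577433 stood at 5.87 (3.09 to 10.3) on 10 fragments, and the peak from 128578508 to 128578732 at 6.43 (3.78 to 10.3) on 15 fragments. The intervals of all 3 overlap. They lay in the lower-coordinate part of the gene, with summits 2.77, 9.51 and 11.07 kb from that end of a span of 22.1 kb. The strand of Erbb3 was not given in the tables used, so the 5′ and 3′ ends were not assigned. At least 3 peaks were held by 11.9% of protein-coding genes. None of the Erbb3 peaks reached a −log10 q of 10, with a highest value of 9.90.

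Erbb4 (NCBI gene 13869; chromosome 1, 68031884 to 69108576, minus strand), the receptor that Hbegf, Ereg and Btc can bind besides Egfr, held 0 peaks in a span of 1080 kb. The nearest peak lay 431 kb from the gene. Of the 59 protein-coding genes that span at least 1000 kb, 23 held a peak (39.0%).

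The nearest peak lay 102 kb or more from each of the ligands. Areg (amphiregulin, NCBI gene 11839; chromosome 5, 91139599 to 91148432), Ereg (epiregulin, NCBI gene 13874; chromosome 5, 91074617 to 91093649) and Btc (betacellulin, NCBI gene 12223; chromosome 5, 91357261 to 91402994) are neighbours within 328 kb of chromosome 5. The nearest peak to them began at 91593761, which is 445 kb from Areg, 500 kb from Ereg and 191 kb from Btc. They lay in a stretch of 1310 kb with no peak, which held 17 protein-coding genes, among them Epgn, the gene of a further EGF family ligand, and the albumin and chemokine genes Alb, Afp, Cxcl1 and Cxcl5. Hbegf (NCBI gene 15200; chromosome 18, 36504927 to 36515805) lay 102 kb from the nearest peak, and chromosome 18 as a whole held 416 peaks. The usual distance from a gene without a peak to its nearest peak is not given here, so these distances are descriptions only. The ligand genes span less than Egfr and Erbb4, so the share of genes of like span is given beside each. Areg spans 8.83 kb, and 20.4% of genes under 10 kb held a peak. Hbegf and Ereg span 10.9 and 19.0 kb, and 31.2% of genes from 10 to 20 kb did. Btc spans 45.7 kb, and 33.0% of genes from 20 to 50 kb did, a class that also holds Erbb2 and Erbb3. The list gives no value for a gene without a peak, so neither the RNA level nor the enrichment of the ligands and of Erbb4 is known from it, and their lack of peaks does not show a lack of ac4C.

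**Figure D2:**
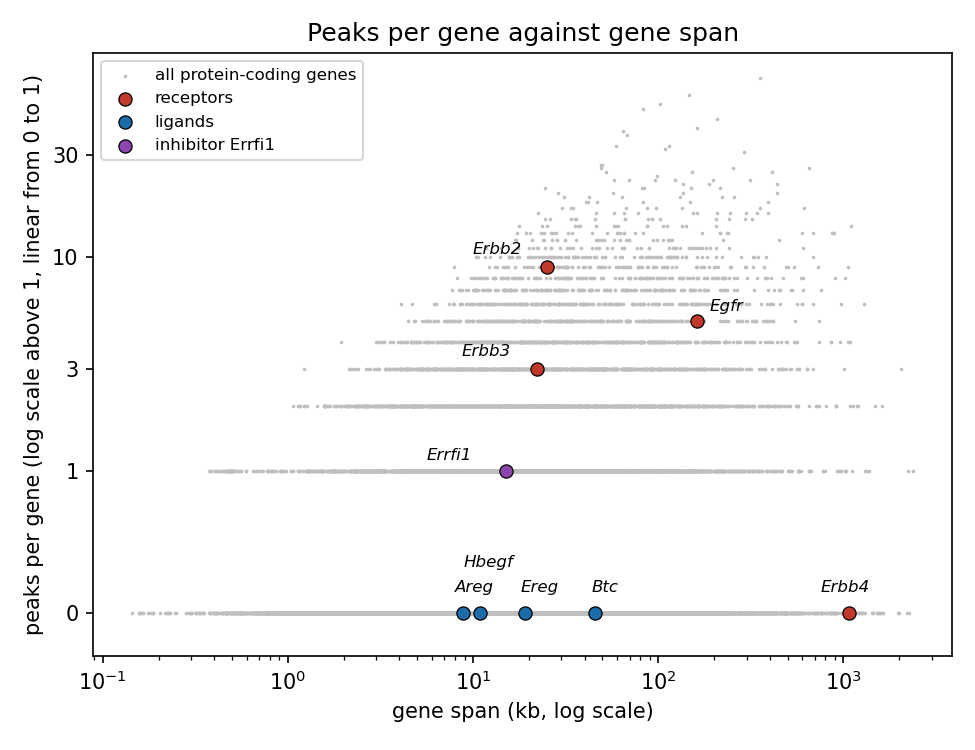
Each point is 1 protein-coding gene, with its span in kb on a log axis and its number of peaks on an axis that is linear from 0 to 1 and logarithmic above. Receptors are red, ligands blue and Errfi1 purple. Erbb2, with 9 peaks in 25.2 kb, stands well above Btc, with 0 in 45.7 kb, and Erbb4 has 0 in 1080 kb.

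Errfi1 (NCBI gene 74155; chromosome 4, 150853796 to 150868889, plus strand), the inhibitor of the receptors, held a single peak that was the deepest of the family. It lay from 150866294 to 150867217, was 924 bp wide and stood at 4.65-fold (3.57 to 5.95), on 61 fragments over a background of 12.3. Its summit lay 12.93 kb from the first transcript start and 2.17 kb before the end of the gene. With this depth its −log10 q of 19.6 was the highest of all 18 peaks, although its fold enrichment was lower than 69.1% of the peaks of the list. A peak upstream, at 5.87-fold, lay outside Errfi1, in both the pseudogene Rps15a-ps3 and the long non-coding RNA gene 1700045H11Rik, which shares 1154 bp with Errfi1, and without strand its source cannot be told apart.

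By the fold enrichment of the highest peak, the order was Erbb2, Erbb3, Egfr and Errfi1, at 12.0, 7.29, 5.96 and 4.65. The 95% intervals of neighbours in this order overlap in each case. The interval of Erbb2 also overlaps that of Egfr, and among all pairs of these genes only Erbb2 and Errfi1 have intervals that do not overlap. Since error of the background is left out of them, intervals that lie apart do not by themselves show a difference. The highest peak was taken from 9 peaks in Erbb2, 3 in Erbb3, 5 in Egfr and 1 in Errfi1. By the median over the peaks of a gene the order was different, with Erbb3 at 6.43, Erbb2 at 6.40, Errfi1 at 4.65 and Egfr at 3.40. The median fold enrichment at the highest peak of the 3 receptors was 7.29, and 6.61 over all 6717 protein-coding genes with a peak. Among these genes, 88.9% had a lower value than Erbb2, 59.3% than Erbb3, 39.4% than Egfr and 18.1% than Errfi1.

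The depth behind these values differed between the genes. The background at the summits, in fragments, ran from 0.317 to 3.94 in Erbb2, from 0.875 to 1.49 in Erbb3 and from 2.19 to 10.1 in Egfr, and was 12.3 in Errfi1. Whether it came from the input library at each site, from the surroundings or from a genome-wide mean is not given in the sources used here. Where it follows RNA abundance in this whole tissue, fewer cells of a type and less RNA per cell cannot be told apart. The list itself sets different floors at these backgrounds. The lowest fold enrichment that entered it was 3.28 among peaks with a background of 0.5 to 1 fragment, the class of 4 Erbb2 peaks and 1 Erbb3 peak. It was 1.91 among peaks with a background of 8 to 16 fragments, the class of the last Egfr peak and of Errfi1. The 2.35-fold of that Egfr peak lies below the lowest value of each class with a background under 4 fragments, which was 3.34, 3.28, 3.17 and 2.83 in order of background.

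Set beside peaks of the same background class, the members were not uniformly high. Of the 18 peaks, 7 stood above the median fold enrichment of their class. These were 4 of 9 in Erbb2, 1 of 5 in Egfr, 1 of 3 in Erbb3 and the 1 in Errfi1. In Erbb2 they were the peak over the transcript start, against a class median of 6.67, and the 3 highest peaks of the main group, against 6.52. The peak of Errfi1 stood above its class median of 3.92, and the last Egfr peak below it. The Egfr peak at 5.96 and the last Erbb2 peak at 4.25 shared a class with a median of 5.78. Over all 18 peaks, the median was 5.91-fold on 15.5 fragments, and over the whole list 5.58-fold on 22 fragments.

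**Figure D3:**
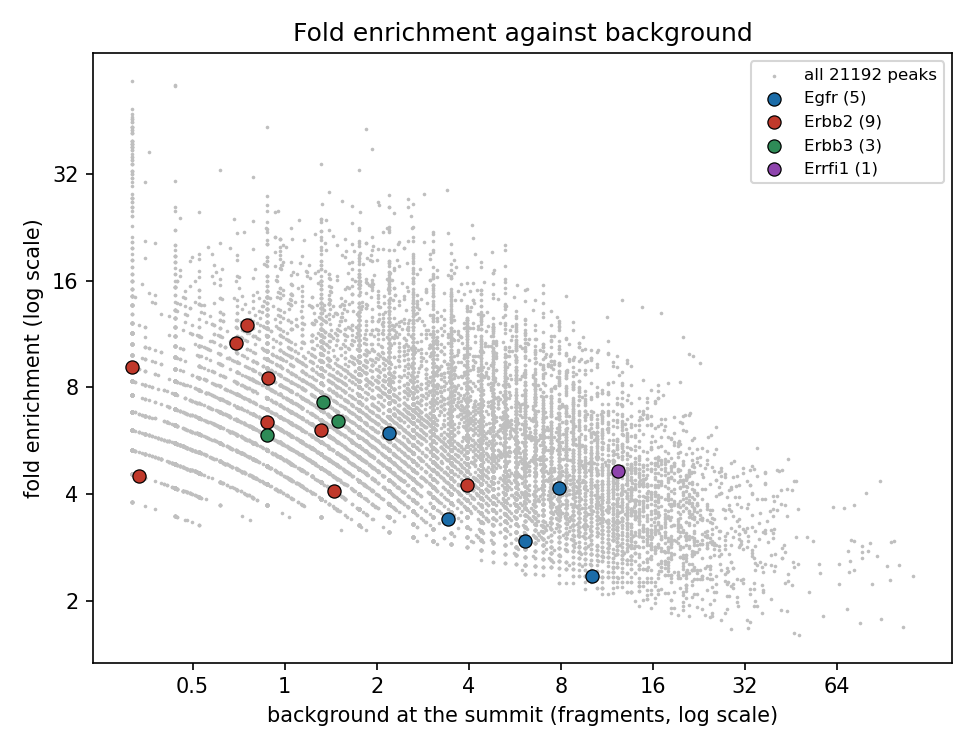
Each grey point is 1 of the 21192 peaks, with its background at the summit in fragments and its fold enrichment, both on log axes, and coloured points are the 18 member peaks. Egfr and Errfi1 lie toward high background and low fold enrichment, and Erbb2 mostly at backgrounds below 1.5 fragments. The lower edge of the grey points falls as the background rises.

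The other genes of the pathway were taken from a list of 60, grouped by role, that was chosen with earlier results of these data known. Of these, 45 held a peak (75%, beside 30.7% of all protein-coding genes), with a median of 7.35 at the highest peak, beside 6.61 over all genes with a peak. Transcript abundance was not known for any of these genes, and it bears on whether a peak can be called. The share of genes with a peak also differed with span, from 20.4% under 10 kb to 49.8% from 100 to 200 kb. The roles below were not matched for span.

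Among the other ligands, 3 of 7 held a peak, and all 3 were neuregulins. Nrg1 had 2 peaks with a highest value of 10.5 (6.16 to 16.9), Nrg2 had 2 with 7.38 (3.89 to 13.0), and Nrg3 had 1 with 6.07 (2.90 to 11.7) on 7 fragments. Egf, Tgfa and Epgn, ligands of Egfr, and Nrg4 held 0. Together with the members, 3 of 11 ligand genes held a peak (27.3%), close to the share of all protein-coding genes. The neuregulin genes with peaks are long, at 1080 kb for Nrg1, 183 kb for Nrg2 and 1110 kb for Nrg3.

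Genes that act on the ligand precursors held peaks in 5 of 6 cases (83.3%, beside 30.7% of all protein-coding genes). Adam10, a protease that sheds ligands such as Btc, stood at 15.8 (10.3 to 23.1) in its 1 peak. Rhbdf2, a rhomboid-like protein that brings the sheddase Adam17 to the cell surface, stood at 11.2 (7.05 to 17.0) with 6 peaks. Adam17 itself, which sheds Areg and Hbegf among others, held 0.

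Among inhibitors and turnover factors of the receptors, 5 of 9 held a peak (55.6%, beside 30.7% of all protein-coding genes). The ubiquitin ligases Cblb and Cbl, which mark activated receptors for breakdown, had the highest values, at 11.1 (7.34 to 16.2) and 7.44 (5.34 to 10.1). Of the feedback inhibitors of the MAP kinase pathway, 5 of 7 held a peak, led by Spred2 at 8.04 (5.0 to 12.3) and Spred1 at 6.66 (3.77 to 11), which restrain the activation of Raf.

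Downstream of the receptors most genes of the list held a peak, beside 30.7% of all protein-coding genes. Of the adaptors and MAP kinase genes it was 14 of 17, with the highest values in the kinase Araf at 11.5 (8.95 to 14.6) and the docking protein Gab1 at 10.8 (7.0 to 16). Of the PI3 kinase pathway it was 7 of 8, among them the kinase Mtor at 13.0 (8.83 to 18.4). All 6 immediate early genes, which are switched on within minutes of growth factor signalling, held a peak, with the transcription factor genes Junb at 16.8 (13.3 to 20.9) and Egr1 at 16.8 (12.7 to 21.9) highest.

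**Figure D4:**
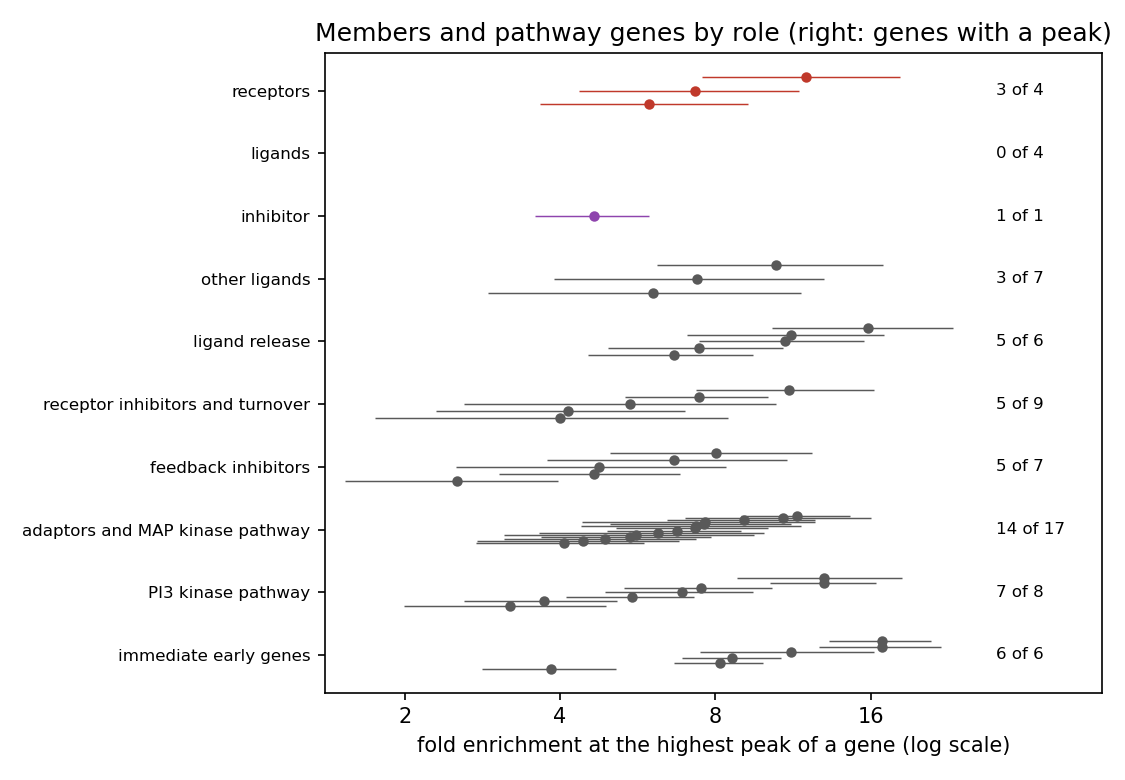
Each point is the fold enrichment at the highest peak of 1 gene on a log axis, with its 95% Poisson interval, for the members and the pathway list in rows by role, and the text at the right gives the number of genes with a peak. The row of the 4 ligands is empty, and the 3 receptors with a peak lie at 5.96 to 12.0, within the range of the downstream rows.

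Markers of the main cell types of the uterus were represented in the list. Of 21 marker genes for uterine cell types, 18 held a peak (85.7%, beside 30.7% of all protein-coding genes). It was 5 of 6 for epithelium (Epcam held none), 5 of 5 for stroma, 4 of 4 for smooth muscle and 3 of 3 for endothelium. For immune cells it was 1 of 3 (Ptprc and Adgre1 held none), close to the share of all protein-coding genes. A peak needs both the transcript and its enrichment, so these counts do not measure cell types. No markers of other tissues were listed, so the counts cannot test the tissue label. The pathway list, which was not chosen by cell type, held a peak in 75% of its genes. Over all 21192 peaks the number of fragments at the summit had a median of 22 (interquartile range 14 to 35).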

How the data were processed

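The 2 libraries were grouped by their titles. Per the submitters' processing notes, HISAT2 2.2.1, MACS3 3.0.0a7 and the build mm10 (GRCm38) were used, while filters are not given in the sources used here. The authors deposited 1 peak list of 10 columns with a fold enrichment (a ratio), a −log10 p-value, a −log10 q-value and a score for each peak. The deposited positions of each peak (start, end and summit) were counted from 1 here. The largest q in the list was 0.0499.

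Gene spans came from a RefSeq table of GRCm38.p6, and transcript starts and sequences from a RefSeq table of 250 bases before to 50 after each start, with 6 of 9 members matched. Exon positions were not used here, so exons and introns were not told apart. The fragment number n and background b of each summit were recovered as the whole n for which (n + 1) / (b + 1) gave the fold enrichment and the Poisson probability of more than n gave the p-value, within a relative miss of 1e-05. This succeeded for 21192 of 21192 peaks, with 0 having another fitting number. Tested on simulated data, it returned the right number for 991 of 991 peaks. Intervals are exact 95% Poisson intervals with the background taken as known. Python 3.11.15, pandas 2.3.3 and SciPy 1.17.1 were used.

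The members and lists were chosen with earlier results of these data known. All 9 members and all 7 other ligands are named, and of each other role the 2 genes with the highest fold enrichment; genes without a peak, marker genes and neighbours named besides were chosen after their values were seen. Some results of single pathway genes are not reported here. With 1 library in each group, no test was made. Alternatives changed the q and fold thresholds, the peak width, the overlap rule and the value per gene.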

Additional observations from a re-analysis of the deposited data

How the results depend on the processing

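The 9 genes held 18 peaks. A minimum −log10 q of 10 left 6 of them and a minimum fold enrichment at the median of the list left 10, by construction of these stricter lists. Summits in the outer 10% of a gene span numbered 4 of the 18, and 1 under each of these 2 thresholds. The share over all peaks is not given here, so this count only describes places. Of the pathway list, 45 genes held a peak, and 27 under the stricter q, where 17.6% of all protein-coding genes held one. Under the other alternatives these counts stayed within 1.5 times the reported value. Members with a peak numbered 3 or 4 throughout. Erbb3 had none under the stricter q, and Errfi1 had none under the fold threshold or among peaks no wider than 631 bp. The ligands held 0 peaks under all 6 alternatives for the list and the gene spans, including spans widened by 5 kb. This outcome was fixed in advance. The stricter lists could only remove peaks, and the nearest peak lay 102 kb or more from each ligand. The median of the receptors, with 1 value per gene, ran from 6.40 to 8.07. The value of 8.07 came from the stricter q, where only 2 receptors held a peak, Egfr at 4.17 and Erbb2 at 12.0. The highest value of Egfr was 4.17 under the stricter q, and that of Erbb2 was 10.6 among peaks no wider than 631 bp. No paired analysis was possible because each group has 1 library. At 5 to 61 fragments per member summit, differences between neighbours in the order of the genes' highest peaks were not detectable.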
